A study of Mus musculus with 12 samples.

Results

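The importins and the Ran system are described here through 10 genes in cultured mouse dorsal root ganglion (DRG) neurons: the importin alphas Kpna1, Kpna2, Kpna3, Kpna4 and Kpna6, the importin beta Kpnb1, the GTPase Ran, the Ran-binding proteins Ranbp1 and Ranbp2, and the export receptor Xpo1. The members were taken by symbol from the deposited count tables. All 10 are among the 14177 genes listed for the libraries labelled Cre-, and 9 are also among the 9112 genes listed for those labelled Cre+, a table that holds no gene with a count under 5 in any library. Kpna2 is the member not listed there.

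The mice carried the RiboTag allele (Rpl22HA/HA), in which Cre recombination gives the ribosomal protein Rpl22 a hemagglutinin (HA) tag, so that HA pull-down recovers tagged ribosomes with the RNA on them. One genotype carried Runx3-Cre and the other no Cre. Runx3-Cre is used to reach proprioceptive sensory neurons, and without Cre the same allele should leave ribosomes untagged. DRG cells were cultured for 24 h from 5 pooled male mice per sample, aged 3 to 6 months by the labels (the study's methods give a younger age), and each genotype has 3 HA pull-downs, made with 5 µg of antibody, and 3 inputs, taken as 10% of the lysate.

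Importin alphas read the nuclear localisation signal of a cargo protein and couple it to importin beta, which carries the complex through the nuclear pore. Inside the nucleus Ran in its GTP form releases the cargo, and exportins such as Xpo1 carry other cargo out again together with Ran-GTP. In sensory axons, far from the nucleus, importins bind dynein, local translation of importin beta mRNA after injury helps to form a retrograde signalling complex, and Ran and Ranbp1 regulate its assembly.

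Counts on listed genes ran from 8886308 to 18633365 per library. Runx3 itself, the gene whose Cre line was used, stood at 22.7, 2.07 and 11.1 normalized CPM (counts per 1000000 after TMM scaling, the trimmed mean of M values) in the Cre+ pull-downs and at 20.7, 35.9 and 51.2 in the Cre- pull-downs. The inputs held 2.39 to 5.55 and 1.89 to 4.68. The pull-down ranges of both genotypes overlap, and the genotype difference of the Runx3 enrichment was -1.93 on the log2 scale (FDR 0.302). Of the proprioceptor markers, 7 of 8 were called higher in the Cre- pull-downs and 1 of 7 tested in the Cre+ pull-downs. Of all tested genes, 13.0% were called higher in Cre- and 4.9% in Cre+. The summed marker levels were 1456 to 1780 in the pull-downs and 399 to 427 in the inputs of Cre- (8 genes). In Cre+ they were 707 to 891 and 307 to 422 (7 genes, without Pvalb, and scaled apart from Cre-). The genotype difference was called for Spp1 (-3.59, FDR 0.0026) and Etv1 (-2.41, FDR 0.0156), both less enriched in Cre+. Not all markers lean to Cre-: Ntrk3 was called higher in both genotypes (2.19 in Cre+, 2.05 in Cre-), and Heg1 stood at 1.30 in Cre+ (FDR 0.108) and 0.33 in Cre- (FDR 0.387). By sign, 6 of the 7 tested markers were above 0 in Cre+ (median 1.30) and 8 of 8 in Cre- (median 2.68). The higher count of called markers in Cre- goes against what the labels lead one to look for. Calls over all genes were also more frequent in Cre-. The names of the pull-down columns in the Cre table also match, apart from punctuation, titles of samples labelled Cre-. The paper reports a better overlap with Runx3-Cre ganglion tissue for its Runx3-Cre cultures than for its Cre- cultures, which was not tested here. Whether tables or labels were exchanged between the genotypes was not settled here. Every Cre+ and Cre- value below carries the genotype as labelled, and an exchange would swap the genotypes and turn the sign of each difference.

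Of 9 neuronal markers, 4 were called higher and 0 lower in the Cre- pull-downs, where 13.0% and 11.1% of all genes were. In Cre+ 1 was called higher (Scn9a, 1.31) and 2 lower (Uchl1 at -1.85, FDR 0.0342, and Tubb3 at -1.19, FDR 0.0448), where 4.9% and 2.32% of all genes were. The summed level of these markers, mostly Nefl and Nefm, was 33699 to 41067 in Cre- pull-downs, 18113 to 20801 in Cre- inputs, 18806 to 20614 in Cre+ pull-downs and 15554 to 18106 in Cre+ inputs. Of the satellite glia and Schwann cell markers, 7 of 9 tested had a negative fold change in Cre- (median -1.11, with Apoe at -1.58 and Fabp7 at -3.09 called lower and S100b at 0.69 called higher), and 5 of 7 in Cre+ (median -0.38, none called). The glial sum was 880 to 1190 in pull-downs and 807 to 921 in inputs of Cre-, carried by S100b and Glul, and 559 to 637 and 814 to 881 in Cre+. The 4 listed endothelial markers summed to 98.7 to 426.7 in the Cre+ pull-downs and 47.8 to 83.2 in their inputs, with Tek called higher (3.98, FDR 0.0855), and to 16.1 to 114.5 and 60.2 to 89.3 in Cre-. Tek held 19.9 ± 23.1 (SD) in the Cre+ pull-downs and only 1.25 ± 0.43 in the inputs. Among those pull-downs Pecam1 (97.7 ± 136.4) and Kdr (31.5 ± 28.5) also spread widely, and Cdh5 (63.5 ± 5.32) did not. Cldn5 is listed in neither table. The part of these cell types in the results was not tested. In bulk RNA, fewer cells of a type and less RNA per cell cannot be told apart.

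The question for each member was whether its RNA was more or less abundant in the pull-down than in the input, and whether that enrichment differed between genotypes. Levels are given as normalized CPM, and a gene was called at a Benjamini-Hochberg adjusted p (FDR) below 0.1 over all genes tested with edgeR's quasi-likelihood test. Ranbp2 was the one member called, higher in the pull-down in both genotypes. In Cre+ this is 1 of 9 members tested called higher and 0 lower (0 at an unadjusted p below 0.05, 0 by DESeq2 and 0 by the edgeR exact test), where 4.9% of all 8947 genes were called higher and 2.32% lower. In Cre- it is 1 of 10 called higher and 0 lower (1 lower at an unadjusted p below 0.05, 0 by DESeq2 and the exact test), where 13.0% of 11526 genes were called higher and 11.1% lower.

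**Figure D1:**
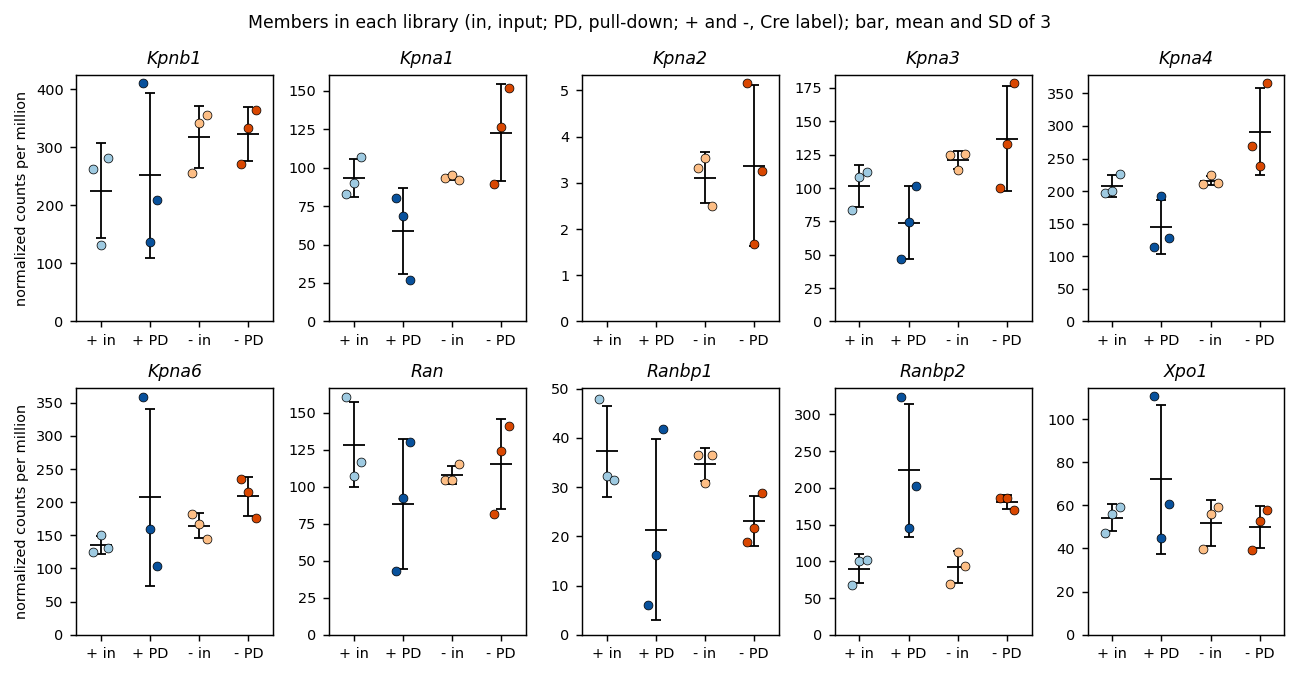
Normalized CPM for each of the 10 members in each library, with mean and SD of 3 libraries per group (+ and -, Cre label; in, input; PD, pull-down). Ranbp2 is the one member whose pull-downs lie above the inputs in both genotypes, at 145.6 to 323.2 against 67.6 to 101.9 in Cre+ and 169.9 to 186.4 against 69.2 to 112.6 in Cre-.

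Since the assay reads RNA on ribosomes, the sequence around the start codon is given for the importin beta, Kpna4, the GTPase and its binding proteins. Kpna4 is the member whose genotype difference had the smallest unadjusted p, though it was not called. Each run holds 24 bases, with the ATG in capitals after 9 bases of 5′ UTR, from the GENCODE M21 transcript linked to the gene's RefSeq accession (build GRCm38). The start codon lies at chr11:97187583-97187585 (minus strand) for Kpnb1, chr3:69126798-69126800 (minus) for Kpna4, chr5:129020539-129020541 (plus) for Ran, chr16:18248560-18248562 (minus) for Ranbp1 and chr10:58446980-58446982 (plus) for Ranbp2.
Kpnb1: acctccgccATGgagctcataacc
Kpna4: ggcccggccATGgcggacaacgag
Ran: tccgccgcgATGgccgcccaggga
Ranbp1: cgcgcccccATGgcggccgccaag
Ranbp2: cgcggcgcgATGaggcgtagcaag
The start context ANNATGG or GNNATGG, read on the transcript strand, is present in Kpnb1, Kpna4 and Ran of these and in 5 of the 10 members, against 45.6% of 9996 transcripts. Ranbp2 has the purine but not the G after the ATG, and Ranbp1 the G but not the purine. These are descriptions of the sequence only.

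Ranbp2 codes for a very large nucleoporin on the cytoplasmic face of the nuclear pore that binds Ran and acts as a SUMO ligase. It lies on chr10:58446852-58494155 with a RefSeq transcript of 9608 bases, and 12 annotated pseudogenes bear its name, so the authors' use of uniquely mapped reads could lose or misplace some of its reads. In Cre+, its inputs held 67.6, 100.5 and 101.9 normalized CPM and its pull-downs 323.2, 145.6 and 201.9. Every pull-down lay above every input. The log2 fold change was 1.31 ± 0.37 (SE, n = 3 per group), a 2.48-fold higher level, with an FDR of 0.0915.

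The Cre- inputs held 69.2, 112.6 and 93.9 of Ranbp2 and the Cre- pull-downs 186.4, 186.0 and 169.9. Here too the groups did not overlap, and the pull-downs lay close together. The log2 fold change was 0.98 ± 0.19 (SE), or 1.97-fold, with an FDR of 0.00476. The enrichment in Cre+ exceeded that in Cre- by 0.37 ± 0.41 on the log2 scale (FDR 0.653). With a library left out this difference ranged from 0.020 (without Cre+ pull-down replicate 1, FDR 0.979) to 0.59. The Cre+ call was lost without any 1 of the 3 Cre+ inputs (log2 fold change 1.14, 1.40 and 1.41, FDR 0.222 to 0.338) and without Cre+ pull-down replicate 3 (1.40, FDR 0.111). Without an input, 4 to 74 of all 8947 genes were called in Cre+, where 646 were with all 6 libraries. In contrast, the Cre- call held with each library left out (FDR 0.00273 to 0.0275).

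**Figure D2:**
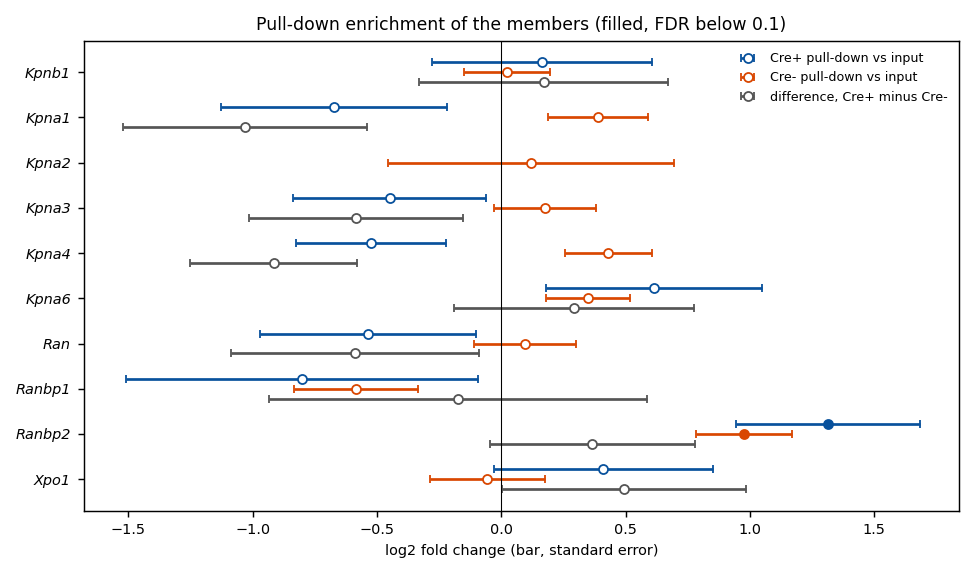
Log2 fold change of pull-down over input for each member in Cre+ (blue) and Cre- (orange), and the difference of both (grey), with standard errors and filled points for FDR below 0.1. Ranbp2 holds the 2 filled points, at 1.31 and 0.98, and Kpna1 and Kpna4 lie below 0 in Cre+ and above 0 in Cre-.

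Ranbp2 is the longest transcript among the members, and over all genes the fold change was higher in classes of longer transcripts. Among all tested genes with a RefSeq transcript length, the median log2 fold change in Cre+ ran from -0.80 for transcripts under 2 kb to -0.12 at 2 to 4 kb, 0.38 at 4 to 6 kb, 0.77 at 6 to 8 kb and 1.25 at 8 kb or more. In Cre- the same medians were -0.35, -0.06, 0.10, 0.33 and 0.53. Ranbp2, in the last class, was matched or exceeded by 231 of 493 such genes in Cre+ (46.9%) and by 112 of 499 in Cre- (22.4%).

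With the length trend over all genes removed from the fold changes, Ranbp2 fell to 0.31 in Cre+ (FDR 0.621) and to 0.49 in Cre- (FDR 0.0733). It was no longer called in Cre+, where 0 of 8898 genes were called at this setting, and still called in Cre-, where 2271 of 11460 were. With the RefSeq transcript in place of the longest annotated one, a choice made after seeing the data, the values were 0.25 (FDR 0.691, with 2 genes called in all) and 0.47 (FDR 0.0846, with 2043).

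**Figure D3:**
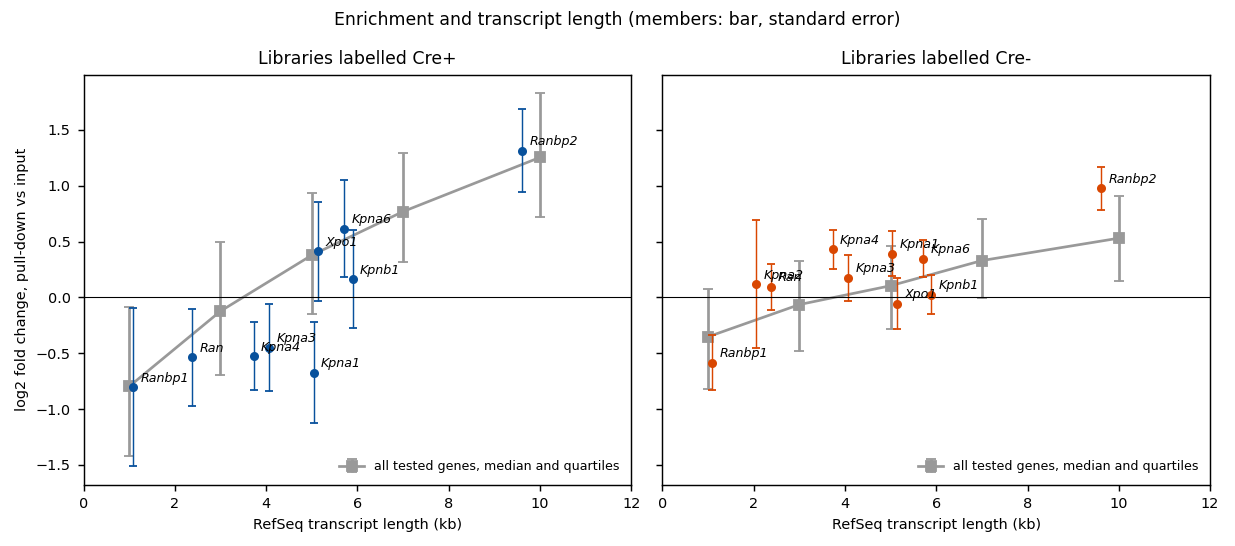
Log2 fold change of pull-down over input against RefSeq transcript length in kb, for the members (points with standard error) and for all tested genes in 5 length classes (squares, median and quartiles, the last class drawn at 10 kb). Ranbp2 at 1.31 lies beside the Cre+ median of 1.25 for 8 kb or more, and at 0.98 above the Cre- median of 0.53 and its upper quartile of 0.91.

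The length balance can be read for each library as the median deviation from the table's mean log2 level of genes of 8 kb or more, minus that of genes under 2 kb. It was -1.80, -0.60 and -0.67 in the Cre+ inputs and 1.41, 0.78 and 0.86 in the Cre+ pull-downs. In Cre- it was -0.61, -0.25 and -0.42 in the inputs and 0.48, 0.48 and 0.34 in the pull-downs. Cre+ input 1 and Cre+ pull-down 1 mark the ends of this scale. Among the Cre+ libraries, the same pull-down held the highest Ranbp2 (323.2) and the lowest Ran (43.0) and Ranbp1 (6.10). The same input held the lowest Ranbp2 (67.6) and the highest Ran (161.1) and Ranbp1 (47.9) of the Cre+ libraries. The share of these levels that goes with length, RNA integrity or amplification was not tested.

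**Figure D4:**
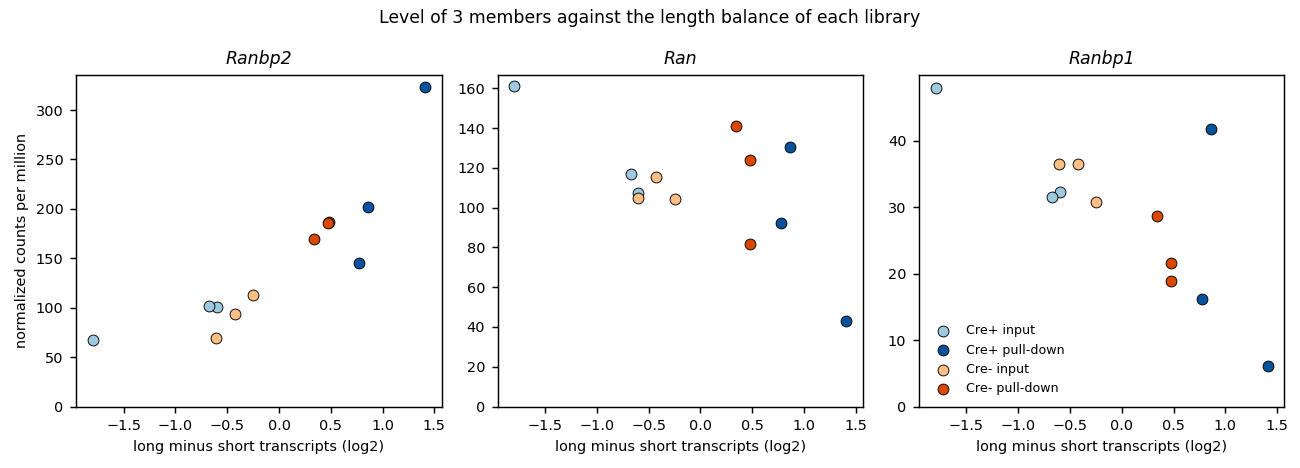
Normalized CPM for Ranbp2, Ran and Ranbp1 in each of the 12 libraries against the library's balance of long minus short transcripts (log2). Cre+ pull-down 1, at 1.41, holds 323.2 of Ranbp2, 43.0 of Ran and 6.10 of Ranbp1, and Cre+ input 1, at -1.80, holds 67.6, 161.1 and 47.9.

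Kpnb1, the import carrier itself, lies on chr11:97159710-97187892, and an antisense gene, Gm11583, shares 7.07% of its exonic sequence. Its Cre+ inputs held 262.2, 131.4 and 281.7 normalized CPM and its Cre+ pull-downs 410.5, 136.3 and 209.5. The ranges overlapped widely. Input 2 stood far below the other inputs, and pull-down 1 far above the other pull-downs. The log2 fold change was 0.16 ± 0.44 (SE, FDR 0.858).

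In Cre-, Kpnb1 stood at 256.3, 341.7 and 356.3 in the inputs and at 272.0, 334.1 and 363.7 in the pull-downs. The fractions covered the same range, with a log2 fold change of 0.02 ± 0.17 (SE, FDR 0.949). The standard error is smaller than in Cre+, but a p that misses the threshold does not show equality. The Cre- value also moved with the scaling, to -0.22 with library-size scaling. With the length trend removed it was -0.13, or -0.18 with the RefSeq transcript. The genotype difference was 0.17 ± 0.50 (FDR 0.877), and its sign turned with upper-quartile scaling (-0.046), library-size scaling (-0.094) and removal of the length trend (-0.14).

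Of the importin alphas, Kpna4, Kpna1 and Kpna3 had a negative fold change in Cre+ and a positive one in Cre-, and no difference between genotypes was called. Kpna4, on chr3:69072221-69127092, held 197.0, 200.2 and 226.8 normalized CPM in the Cre+ inputs and 114.3, 191.9 and 127.7 in the Cre+ pull-downs. Every Cre+ pull-down lay below every input, at a log2 fold change of -0.52 ± 0.30 (SE, FDR 0.319). In Cre- the inputs held 210.8, 224.6 and 213.1 and the pull-downs 269.6, 238.7 and 365.7. There, every pull-down lay above every input, at 0.43 ± 0.18 (SE, unadjusted p 0.0303, FDR 0.116).

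The difference of the Kpna4 enrichments, Cre+ minus Cre-, was -0.92 ± 0.33 on the log2 scale, with an unadjusted p of 0.0162 and an FDR of 0.167. It was called without Cre+ pull-down replicate 2 (-1.18, FDR 0.039), and with the length trend of the longest annotated transcript removed (-1.38, FDR 0.0938), but not with that of the RefSeq transcript removed (-0.89, FDR 0.171). The longest transcript has 8819 bases in Kpna4, and the RefSeq one 3726. In Cre- the fold change of Kpna4 passed the threshold without pull-down replicate 1 (0.50, FDR 0.056) or 2 (0.56, FDR 0.092). Without Cre- pull-down replicate 3 it was 0.245 (FDR 0.386). With the longest transcript's length trend removed the Cre- value was -0.0074 (FDR 0.985), against 0.42 (FDR 0.160) with the RefSeq transcript's. The Cre+ fold change ranged from -0.76 to -0.34 with a library left out.

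Kpna1, on chr16:35983288-36037136, showed the same arrangement of signs. Its Cre+ inputs held 82.9, 89.8 and 107.1 and its Cre+ pull-downs 80.2, 68.4 and 27.0. All 3 pull-downs lay below the inputs, at a log2 fold change of -0.67 ± 0.45 (SE, FDR 0.391), and the third was far below the rest. Without it the fold change was -0.30 (FDR 0.582). The Cre- inputs were close together at 93.4, 95.2 and 92.0, and the Cre- pull-downs held 89.4, 126.5 and 151.9. The fractions overlapped through pull-down 1, at 0.39 ± 0.20 (SE, FDR 0.208), and without it the fold change was 0.59 (FDR 0.0188). Without Cre- pull-down 3 the fold change was 0.22 (FDR 0.543). The genotype difference was -1.03 ± 0.49 (unadjusted p 0.0539, FDR 0.266), and it was called only without Cre+ pull-down replicate 1 (-1.31, FDR 0.0893).

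Kpna3, on chr14:61365186-61439947, held 83.3, 108.1 and 112.3 in the Cre+ inputs and 46.9, 74.3 and 101.2 in the Cre+ pull-downs, with overlap (log2 fold change -0.45 ± 0.39, SE, FDR 0.506). The fold change was -0.17 without Cre+ pull-down 1 and -0.71 without Cre+ pull-down 3. In Cre- Kpna3 held 124.6, 113.6 and 125.8 in the inputs and 99.9, 132.7 and 178.5 in the pull-downs (0.18 ± 0.21, FDR 0.610). The overlap was complete on that side, where the pull-downs enclosed the inputs. Between genotypes the enrichment differed by -0.58 ± 0.43 (FDR 0.474), or by -0.88 to -0.33 with a library left out.

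Kpna6, on chr4:129643979-129672767, was the importin alpha with a positive fold change in both genotypes. It held 124.9, 151.0 and 130.4 in the Cre+ inputs and 358.2, 160.1 and 103.1 in the Cre+ pull-downs. The pull-downs spread widely and enclosed the inputs, and pull-down 1 carried the mean: the log2 fold change of 0.61 ± 0.43 (SE, FDR 0.414) was -0.0028 without it. In Cre- the inputs held 181.6, 166.7 and 144.1 and the pull-downs 234.5, 215.1 and 176.6 (0.35 ± 0.17, FDR 0.183). Cre+ minus Cre- came to 0.29 ± 0.48 (FDR 0.770), and -0.34 without Cre+ pull-down 1.

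Kpna2, on chr11:106988629-106999525, was read by 25 to 93 counts per library in Cre-, which limits its precision. It held 3.32, 3.53 and 2.49 normalized CPM in the inputs and 5.17, 1.69 and 3.26 in the pull-downs. The log2 fold change was 0.12 ± 0.58 (SE, FDR 0.916), and the annotation has 1 pseudogene named for it. Kpna2 is known as the importin alpha of dividing cells, and of 10 proliferation markers 6 are listed for Cre- and 1 for Cre+. In the Cre- libraries those markers summed to 25.2 to 42.0 in the inputs and 21.9 to 30.8 in the pull-downs. Tpx2 makes up most of the sum and was called lower in the Cre- pull-downs (13.1 ± 1.78 against 26.2 ± 9.99, SD, FDR 0.0476), while Aurka (0.34, FDR 0.759) and Birc5 (0.03, FDR 0.989) had positive fold changes that were not called.

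Ran, the GTPase that gives transport its direction, lies on chr5:129020156-129024322. In Cre+ it held 161.1, 107.5 and 117.1 normalized CPM in the inputs and 43.0, 92.2 and 130.6 in the pull-downs. The fractions overlapped through pull-down 3, at a log2 fold change of -0.54 ± 0.43 (SE, FDR 0.475). This was -0.17 without Cre+ pull-down 1 and -0.90 without Cre+ pull-down 3. In Cre- the inputs held 104.9, 104.4 and 115.2 and the pull-downs 82.0, 124.0 and 140.9 (0.10 ± 0.20, FDR 0.795). The pull-downs enclosed the inputs. The genotype difference was -0.59 ± 0.50 (FDR 0.533), and ranged from -0.98 to -0.25 with a library left out. The Cre+ fold change was 0.080 with the longest transcript's length trend removed and -0.033 with the RefSeq transcript's.

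Ranbp1, which promotes release and hydrolysis of Ran-GTP in the cytoplasm, lies on chr16:18239979-18248694 and is the shortest member, with a transcript of 1085 bases. The same-strand gene Gm49776 and the antisense gene Trmt2a together share 20.1% of its exonic sequence, and no source used here says whether strand entered the counting. In Cre+ it held 47.9, 32.3 and 31.5 in the inputs and 6.10, 16.2 and 41.8 in the pull-downs, where the 3 pull-downs spread widely and the third overlapped the inputs (log2 fold change -0.80 ± 0.71, SE, FDR 0.515). The value was -1.71 without Cre+ pull-down 3 and -0.33 without Cre+ pull-down 1.

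In Cre-, Ranbp1 held 36.5, 30.7 and 36.6 in the inputs and 18.9, 21.6 and 28.8 in the pull-downs. Every pull-down lay below every input, at -0.58 ± 0.25 (SE, unadjusted p 0.0357, FDR 0.129). It was called lower with library-size scaling (-0.82, FDR 0.0335), a scaling that moved the median of all genes to -0.27, and without Cre- pull-down replicate 3 (-0.76, FDR 0.0942). Transcripts under 2 kb had a median of -0.35 in Cre- and -0.80 in Cre+, and with the longest transcript's length trend removed Ranbp1 stood at -0.10 in Cre- (FDR 0.833) and 0.30 in Cre+ (FDR 0.848). With the RefSeq transcript's trend removed the values were -0.15 (FDR 0.743) and 0.29 (FDR 0.865). Between genotypes the enrichment differed by -0.17 ± 0.76 (FDR 0.922).

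Xpo1, the export receptor for leucine-rich nuclear export signals, lies on chr11:23255909-23297597. It held 47.2, 56.2 and 59.4 in the Cre+ inputs and 110.8, 44.7 and 60.8 in the Cre+ pull-downs, which enclosed the inputs (log2 fold change 0.41 ± 0.44, SE, FDR 0.597). Without Cre+ pull-down 1 the value was -0.0017. In Cre- it held 39.8, 56.1 and 59.4 in the inputs and 39.1, 52.7 and 57.7 in the pull-downs (-0.06 ± 0.23, FDR 0.899). Cre+ minus Cre- came to 0.49 ± 0.49 (FDR 0.600), and to 0.063 (FDR 0.937) without Cre+ pull-down 1.

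Across the members, the Cre+ pull-downs did not overlap the inputs in 1 member above (Ranbp2) and 2 below (Kpna1, Kpna4), where 15.5% of all tested genes lay above and 17.9% below. In Cre- they lay above in 2 of 10 (Kpna4, Ranbp2) and below in 1 (Ranbp1), against 18.2% and 18.6% of all genes. The median log2 fold change of the members was -0.45 in Cre+, beside 0.08 over all genes, and 0.15 in Cre-, beside -0.04. For the difference of enrichments, 0 of 9 members were called (1 at an unadjusted p below 0.05, Kpna4, and 0 by DESeq2), where 4.52% of 8954 genes were, and their median was -0.17 beside 0.13 over all genes.

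Levels can be compared between genes only per length. Per kb of RefSeq transcript, the Cre- inputs held 58.0 ± 1.98 (SD) normalized CPM for Kpna4, 54.0 ± 9.16 for Kpnb1, 45.5 ± 2.56 for Ran and 31.9 ± 3.09 for Ranbp1. Kpna3 (29.8), Kpna6 (28.7), Kpna1 (18.6), Xpo1 (10.1), Ranbp2 (9.56) and Kpna2 (1.52) followed. The neighbours whose ranges did not overlap were Ran over Ranbp1, Kpna6 over Kpna1, Kpna1 over Xpo1 and Ranbp2 over Kpna2. The Cre+ inputs began with Kpna4 (55.8) and Ran (54.1) and ended with Xpo1 (10.5) and Ranbp2 (9.37), in an order where Ranbp1 over Kpna3, Kpna6 over Kpna1 and Kpna1 over Xpo1 did not overlap.

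In the pull-downs the order per kb changed for several members. Levels per kb still carry the length trend of the fold changes given above, and its part in these ranks was not tested. In Cre+ Ranbp2 moved from the ninth to the fifth place (23.3 ± 9.45), among members whose neighbouring ranges all overlapped, from Kpnb1 (42.8) to Kpna1 (11.6). In Cre- Ranbp2 was the eighth (18.8 ± 0.981), clear of Xpo1 (9.69) below it but not of Ranbp1 (21.3) above it. Kpna4 led there, at 78.2 ± 17.8, clear of Kpnb1 at 54.8, and Ranbp1 went from rank 4 in the inputs to rank 7. Here and in the inputs the place of Kpna4 rests on its RefSeq transcript of 3726 bases, where the longest annotated one has 8819.

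The genes most like a member were those with the smallest root mean square difference of centred log2 level over the 12 libraries, among 8954 genes. For Kpnb1 they were Rsrc1 (0.30), Pptc7 (0.30) and Ociad1 (0.31), where the median gene differed by 0.82 and the nearest member, Xpo1, by 0.49. A gene with the same level in all libraries would differ from Kpnb1 by 0.48, so Xpo1 was no nearer than that. For Ran they were Rad23b (0.16), Calm3 (0.18) and Ndel1 (0.20), with a median gene at 0.78, and the nearest members were Kpna3 (0.35) and Ranbp1 (0.40). An unchanging gene would differ from Ran by 0.46. For Ranbp2, added after its values were seen, they were Lonrf2 (0.14), Arhgap31 (0.14) and Dopey2 (0.18), with a median gene at 0.93. The libraries share preparation and the length balance above, so the likeness is a description.

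The wider pathway was read through 68 other genes in 5 lists. In Cre+ 61 were tested and 1 was called higher and 0 lower (2 lower at an unadjusted p below 0.05 in retrograde signalling and 1 among Ran regulators, and 1 lower by DESeq2, Dynll1). In Cre- 64 were tested, with 9 called higher and 5 lower. The shares over all genes were 4.9% higher and 2.32% lower in Cre+ and 13.0% and 11.1% in Cre-. For the difference 0 of 61 were called. At an unadjusted p below 0.05 the differences with a positive sign numbered 2 among other importin beta family members, 2 among exportins, 1 among nucleoporins and 1 in retrograde signalling, and DESeq2 called 1, Ipo13.

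Of 10 other importin beta family members, which carry further import cargoes, 0 were called in Cre+ (0 at an unadjusted p below 0.05, 0 by DESeq2). In Cre-, Ipo8 was lower, at 15.7 ± 3.69 (SD) normalized CPM in pull-downs and 31.0 ± 1.14 in inputs, a log2 fold change of -0.98 (FDR 0.0247). Ipo9 was higher, at 83.2 ± 5.82 against 57.6 ± 9.05, or 0.53 (FDR 0.0712), and with the length trend removed it was 0.32 (FDR 0.296), or 0.27 with the RefSeq transcript (FDR 0.372), and not called. Ipo13 stood at 0.76 in Cre+ (FDR 0.284) and at -0.44 in Cre- (FDR 0.168), a difference of 1.24 ± 0.43 (FDR 0.150), and Tnpo2 stood at -0.44 in Cre+ (FDR 0.379).

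Of 6 other exportins, 0 were called in either genotype. At an unadjusted p below 0.05, 1 was higher in Cre+ (Xpo6, also called by DESeq2) and 1 lower in Cre- (Xpot, not called by DESeq2). Xpo6, the exporter of profilin and actin, had 158.2 ± 45.5 (SD) in the Cre+ pull-downs and 83.8 ± 13.1 in the inputs (log2 fold change 0.92, FDR 0.151). Its difference between genotypes was 0.92 ± 0.38 (FDR 0.205). Xpot, the tRNA exporter, stood at -0.39 in Cre- (FDR 0.113) with a difference of 0.64 (FDR 0.246). Xpo5, which exports microRNA precursors, stood at 1.16 ± 0.65 in Cre+ (FDR 0.305), and Xpo7 at 0.32 ± 0.18 in Cre- (FDR 0.258).

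Of the Ran regulators and Ran-binding genes, 0 of 7 were called in Cre+ and 0 of 9 in Cre-. At an unadjusted p below 0.05, Ranbp17 was higher and Rangap1 lower in Cre+, and Ranbp6 higher in Cre-, and DESeq2 called Ranbp17 in Cre+ and Ranbp6 in Cre-. Rangap1, the GTPase-activating protein of Ran, had a log2 fold change of -1.03 ± 0.45 in Cre+ (FDR 0.205), with every pull-down below every input, and 0.12 ± 0.17 in Cre- (FDR 0.688). Ranbp17 stood at 2.33 ± 0.97 in Cre+ (FDR 0.186) and 0.24 in Cre- (FDR 0.708). Ranbp6 stood at 0.49 ± 0.20 in Cre- (FDR 0.119) and at -0.30 in Cre+ (FDR 0.666), with pull-downs and inputs apart in opposite order. Ranbp3 stood at 0.62 ± 0.36 in Cre- (FDR 0.259).

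Of the nucleoporins, which build the pore, 0 of 24 were called in Cre+ (4 higher at an unadjusted p below 0.05, and Nup214 and Tpr by DESeq2). In Cre-, 4 of 25 were called higher and 1 lower, where 13.0% and 11.1% of all genes were. Nup98 had 109.5 ± 32.4 (SD) in the Cre- pull-downs and 65.9 ± 12.3 in the inputs (log2 fold change 0.73, FDR 0.0498), with overlap. Seh1l, of the outer ring of the pore, was lower, at 23.2 ± 2.31 against 42.3 ± 5.26 (-0.87, FDR 0.0198). The other calls were Nup153 (0.56), Nup155 (0.62) and Nup214 (0.56), and the transcripts of these 3 and Nup98 are 4052 to 7832 bases long against 1684 for Seh1l. With the length trend removed Nup153, Nup155 and Nup214 were not called (0.37, 0.27 and 0.31, FDR 0.210 to 0.482), nor with the RefSeq transcript's (0.32, 0.24 and 0.27, FDR 0.276 to 0.542). Nup98 kept its call only with the RefSeq transcript's trend removed, and Seh1l only with the longest transcript's. In Cre+, Nup214 stood at 1.44 ± 0.45 (FDR 0.106) and Tpr at 1.16 ± 0.41 (FDR 0.134). The nucleoporin difference with the smallest FDR was that of Nupl2, at 2.02 ± 0.90 (FDR 0.235), from 4.09 ± 1.59 (SD) normalized CPM in the Cre+ inputs and 14.1 ± 8.96 in the Cre+ pull-downs.

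Of 14 genes named for retrograde injury signalling with axonal importins, 1 was called higher in Cre+ and 0 lower by the quasi-likelihood test (2 lower at an unadjusted p below 0.05, and Dynll1 by DESeq2 and the exact test), where 4.9% and 2.32% of all genes were. In Cre-, 4 were called higher and 3 lower, against 13.0% and 11.1%. Dync1h1, the heavy chain of the dynein motor, rose in both: it had 2931 ± 1851 (SD) in the Cre+ pull-downs against 571 ± 198 in the inputs (log2 fold change 2.36, FDR 0.0406), and 1343 ± 375 against 572 ± 102 in Cre- (1.23, FDR 0.00182). Its transcript is 14342 bases long, and with the longest transcript's length trend removed it was 0.91 in Cre+, no longer called (FDR 0.230), and 0.52 in Cre- (FDR 0.0774). Dynll1, a dynein light chain with a transcript of 2030 bases, fell in Cre-, from 84.7 ± 4.25 to 43.4 ± 2.54 (-0.96, FDR 0.00326). In Cre+ it stood at -1.53 ± 0.47 (FDR 0.106), with every pull-down below every input. In Cre-, Dync1i1, an intermediate chain, rose from 30.0 ± 6.31 to 63.5 ± 6.31 (1.08, FDR 0.00618).

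The other Cre- calls in this list were Jun (0.93, FDR 0.0103) and Mapk8ip3 (0.71, FDR 0.0261), which were higher, and Mapk3 (-0.62, FDR 0.0084) and Vim (-0.86, FDR 0.0967), which were lower. Jun is an injury-responsive transcription factor, Mapk8ip3 a kinase scaffold that binds motor proteins, Mapk3 a kinase of the Erk family, and Vim the intermediate filament vimentin. In Cre+ the same genes stood at 0.47 for Jun (FDR 0.398), 0.70 for Mapk8ip3 (FDR 0.255), -0.35 for Mapk3 (FDR 0.382) and 0.07 for Vim (FDR 0.938). Every Cre+ pull-down of Mapk8ip3 lay above every input, and its genotype difference was 0.01 ± 0.42. Of the 14 Cre- calls over the 5 lists, 6 were kept with the longest transcript's length trend removed and 7 with the RefSeq transcript's, where the calls over all genes went from 2786 to 2271 and 2043, and those kept in both were Ipo8, Dync1h1, Dynll1, Dync1i1 and Jun.

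**Figure D5:**
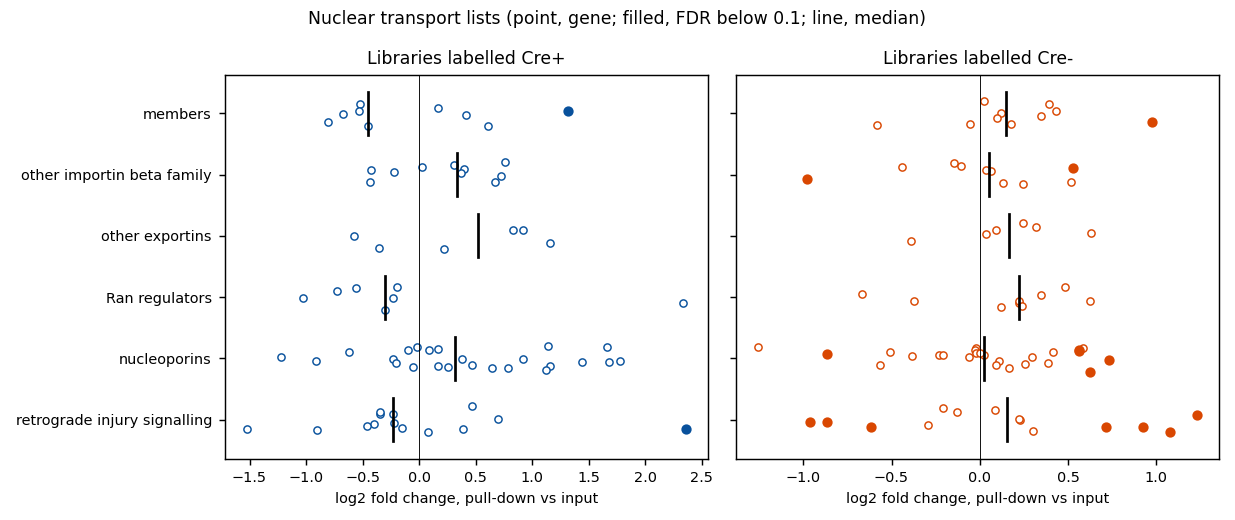
Log2 fold change of pull-down over input for the members and 5 lists of transport and retrograde signalling genes (a point per gene, filled for FDR below 0.1, a line at the median) in Cre+ and Cre-. Of the 68 list genes, 1 point is filled in Cre+ (Dync1h1 at 2.36), and 9 above and 5 below 0 are filled in Cre-.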

How the data were processed

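The 12 RNA-seq libraries (4 groups of 3) were grouped by their labels. The authors aligned reads to mm10 with STAR and deposited, for each genotype, whole-number counts per gene made with HTSeq on refFlat from uniquely mapped reads. The tables also hold the mean FPKM over their libraries as computed by the authors, and the authors' fold changes and p-values, which were not used. The labels name CASAVA 1.8.2 and an ultra-low-input kit, the methods another kit. Columns headed Cre were assigned as a group to the samples labelled Cre+, whose labels name that table, so their numbers only tell libraries apart. A further 18 columns with per-sample values were not used. That replicates are separate cultures is not stated beyond the pools of 5 mice, so p-values measure the spread between these samples.

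Counts of genes with mean FPKM above 1 were tested with edgeR 4.0.16 (TMM, robust quasi-likelihood fit, R 4.3.3), pull-down against input within each genotype's 6 libraries, and the difference in a fit of all 12. The SE was the fold change divided by the square root of F. Alternatives were DESeq2 1.42.0, edgeR's exact test, upper-quartile and library-size scaling, other filters (at least 10 counts in 3 libraries, or none), an FDR of 0.05, a 2-fold limit, all 12 libraries in 1 fit, a replicate block, removal of a loess trend on transcript length (span 0.4) and each library left out. Normalized levels came from TMM within each table (1 scaling per table), so levels are not compared across genotypes by test. GENCODE M21 gave the transcripts and RefSeq the gene coordinates (build GRCm38). Members and lists were chosen with earlier results of these data known. Named list genes are the 2 with the smallest FDR per comparison and those past 2-fold and called, and others are named after their values were seen. In simulated counts with 200 changed genes, the fit recovered 1% of 2-fold and 24% of 4-fold changes in Cre+. It recovered 27% and 96% in Cre-. For the difference it recovered 0% and 10%. More than 200 genes were called in the measured counts (646, 2786 and 405), and the standard error differed between genes. These shares therefore need not hold for a single member.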

Additional observations from a re-analysis of the deposited data

How the results depend on the processing

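Over 465 alternative values of the 28 member and comparison pairs, 403 kept their sign and side of the threshold, 46 changed sign (none of them a called value), 8 lost a call and 8 gained one. The count of members called in Cre+ (1, Ranbp2) was 0 with upper-quartile scaling, library-size scaling, an FDR of 0.05 and either length trend removed, and 0 to 1 with a library left out. In Cre- (1) it was 2 with library-size scaling, 0 with the 2-fold limit and 1 to 3 with a library left out. For the difference (0) it was 1 with the longest transcript's length trend removed and 0 to 1 with a library left out.

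Sign changes in Cre+ were Kpnb1 with upper-quartile scaling (-0.083), library-size scaling (-0.32), the length trend removed (-0.26, or -0.36 with the RefSeq transcript), Xpo1 with library-size scaling (-0.068) and the length trend removed (-0.011), Ran with the length trend removed (0.080), and Ranbp1 (0.30, or 0.29 with the RefSeq transcript). In Cre- they were Kpnb1 with upper-quartile scaling (-0.0064), library-size scaling (-0.22), the length trend removed (-0.13, RefSeq -0.18) and all 12 libraries in 1 fit (-0.0017), Kpna2 (-0.096), Kpna3 (-0.068) and Ran (-0.15) with library-size scaling, and Kpna4 with the length trend removed (-0.0074). In the difference they were Kpnb1 with upper-quartile scaling (-0.046), library-size scaling (-0.094) and the length trend removed (-0.14, RefSeq -0.20), Ranbp1 (0.38, RefSeq 0.43) and Ranbp2 (-0.15, RefSeq -0.18) with the length trend removed, and Kpna6 (RefSeq -0.0051). The causes were not tested.

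With a library left out, values that changed sign ranged in Cre+ from -0.0028 to 0.95 for Kpna6, -0.34 to 0.48 for Kpnb1 and -0.0017 to 0.68 for Xpo1. In Cre- they ranged from -0.11 to 0.15 for Kpnb1, -0.21 to 0.11 for Xpo1, -0.32 to 0.44 for Kpna2, -0.046 to 0.37 for Kpna3 and -0.056 to 0.31 for Ran. In the difference they ranged from -1.11 to 0.27 for Ranbp1, -0.35 to 0.46 for Kpnb1 and -0.34 to 0.61 for Kpna6.

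Counts over all genes moved more. In Cre+ 646 genes were called, against 1808 by DESeq2, 1275 by the exact test, 2769 with all 12 libraries in 1 fit, 165 at an FDR of 0.05, 0 and 2 with the length trend removed, and 4 to 1555 with a library left out (1555 without Cre+ pull-down replicate 1). In Cre- 2786 of 11526 tested genes were called, against 1365 with the 2-fold limit and, leaving out Cre- pull-down replicate 2, 1845. With all 12 libraries in 1 fit 584 were called, out of 8954 tested genes that are listed for both genotypes. For the difference 405 were called, against 1118 by DESeq2, 95 at an FDR of 0.05, 251 with the RefSeq length trend removed and 43 to 1465 with a library left out. Library-size scaling moved the median log2 fold change of all genes from 0.08 to -0.36 in Cre+, from -0.04 to -0.27 in Cre- and from 0.13 to -0.11 in the difference, and the share of higher calls from 67.8% to 21.7%, from 53.9% to 28.1% and from 52.3% to 20.1%. Upper-quartile scaling moved the medians to -0.12 in Cre+ and -0.05 in the difference, with 48.4% and 28.9% higher.

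The numbers in the Cre- labels were not taken to pair the samples in the main fit. The correlations of same-numbered deviations were small, at 0.0654, 0.0274 and 0.121, but lay above those of unlike numbers (-0.107 to 0.0244). With a replicate block Cre- had 1 member called (Ranbp2, FDR 0.00581) and 3011 genes in all. The Cre+ columns were tied by the labels to their group but not to single samples, so their column numbers were not used to pair them and no block was fitted there or in the difference. In the simulated counts most 2-fold changes were missed in each comparison, and most 4-fold changes in Cre+ and in the difference. Smaller changes were not simulated.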
